A study of Mus musculus with 3 samples.

Results

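Heat shock proteins and their DnaJ co-chaperones were followed in RNA from the hippocampus of C57BL/6 mice aged 10 months. The 3 groups were wild type (WT), PS19, and PS19 with the genotype Zbp1+/-, written here as PS19 Zbp1+/-. PS19 is a tauopathy model in which the mouse Prnp promoter drives mutant human tau, and Zbp1 encodes a protein that binds Z-form RNA and DNA and can trigger necroptosis. Each genotype was represented by 1 RNA-seq library, and the labels give neither sex nor whether a library came from 1 animal or from pooled animals. Members were all protein-coding genes named Hspa, Hspb or Dnaja, Dnajb or Dnajc with a number, all Hsp90 genes, and Hspd1, Hspe1 and Hsph1. This gave 72 of the 54532 genes listed, of which 22046 are protein-coding. The rule itself uses gene names and no measured value.

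Hsp70 proteins (the Hspa genes) hold unfolded stretches of other proteins in a cycle driven by ATP. J-domain proteins (the Dnaj genes) bring clients to Hsp70 and start that cycle, and Hsp110 proteins (Hsph1, Hspa4, Hspa4l) end it by exchanging the nucleotide. Hsp90 acts later on partly folded clients, the chaperonin pair Hspd1 and Hspe1 folds proteins inside mitochondria, and small heat shock proteins (Hspb) hold unfolding proteins without ATP. Heat shock factor 1 induces many cytosolic members, while those of the endoplasmic reticulum follow the unfolded protein response. Hsp70, Hsp90 and their co-chaperones are studied in tau models because they bind tau and take part in its turnover.

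With 1 library per genotype no difference below has a replicate check, no p-value was computed, and each value describes these libraries. Levels are FPKM as deposited, that is, fragments scaled to gene length and to a library size that the values imply. Differences are of log2(FPKM + 1), which understates the changes of weak genes. Whole reads could be recovered from the FPKM values, and they summed to 16400328 to 17109734 per library. A read ratio is the ratio of reads per implied library size between 2 libraries, and its exact (Clopper-Pearson) 95% interval covers counting error only. PS19 Zbp1+/- had the most reads (17109734) but the smallest implied size (15826984, against 17253479 in WT and 17287957 in PS19). Scaled by total reads instead, its values are lower relative to both other libraries, and the intervals do not cover this choice.

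Several facts about the libraries touch the results. Zbp1 had 5 reads in WT, against 91 in PS19 and 0 in PS19 Zbp1+/-. The upper bound of its read ratio to PS19 was 0.0452, which sits oddly with a genotype that keeps 1 allele, so PS19 Zbp1+/- stands throughout for the library labelled that way. Xist reads were present in WT and PS19 and absent from PS19 Zbp1+/-, the only library with reads of Y-linked genes, so by these genes the PS19 Zbp1+/- sample is male and the others female, and sex cannot be told apart from genotype there. The hippocampal markers Prox1, C1ql2, Fibcd1, Wfs1, Bok, Grik4, Zbtb20 and Neurod6 had reads in every library, with a summed FPKM of 274 in WT, against 214 in PS19 and 288 in PS19 Zbp1+/-. Fibcd1 led the last sum (37, 27 and 111), and 6 of the 8 were lower in PS19 Zbp1+/- than in WT (median -0.35), as were 6 of 8 in PS19 (median -0.34). The thalamic markers Prkcd (8.15, 23.1 and 1.69) and Tcf7l2 (0.988, 3.85 and 0.463) were highest in PS19. They come from a list of 6 thalamic and striatal markers, of which 5 were tested between PS19 and WT. Of these, 2 were higher in PS19 and 3 were lower (median -0.36), among the latter Drd1 (1.31, 0.797 and 1.15). All 9 immediate early genes, such as Arc and Egr1, were lower in PS19 than in WT (median -0.39). Choroid plexus markers summed to an FPKM of 3395, 2156 and 25.4 in that order, and ependymal markers to 36, 31.5 and 9.13. None of the choroid plexus or ependymal markers was at 0 in any library. In bulk tissue, fewer cells of a type and less RNA per cell cannot be told apart. PS19 Zbp1+/- also held reads for fewer genes (21408, against 24741 in WT and 25397 in PS19), so its low counts are less certain than their intervals state.

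The members took 1.02% of all reads in WT, against 0.911% in PS19 and 0.992% in PS19 Zbp1+/-, and the 3 most abundant genes lead them. Hsp90ab1 (chromosome 17, 45567775 to 45573271), the constitutive cytosolic Hsp90, was the most abundant, with an FPKM of 602 in WT, against 512 in PS19 and 726 in PS19 Zbp1+/-. Hspa8 (chromosome 9, 40800984 to 40810087), the constitutive Hsp70 that also uncoats clathrin vesicles, had 349, 293 and 412. Hsp90aa1, the inducible cytosolic Hsp90, had 285, 232 and 319. At the deposited scale, each of these genes was lowest in the PS19 library and highest in the PS19 Zbp1+/- library. Of all 1566 protein-coding genes with a mean FPKM of at least 30, 1231 were lower in PS19 than in WT. Of the same 1566 genes, 1246 were higher in PS19 Zbp1+/- than in PS19. With the FPKM sums of the libraries set equal (TPM), the median difference of the Hsp90 family between PS19 Zbp1+/- and WT was 0.0014. Of the 72 members, 59 reached an FPKM of 1 in every library and 10 stayed below 1 in every library. The 10 were Dnajb7, Dnajb8, Dnajb13, Dnajc5b, Dnajc5g, Dnajc22, Dnajc25, Hspb2, Hspb7 and Hspb9. Dnajc5b and Dnajc5g had no read in any library.

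**Figure D1:**
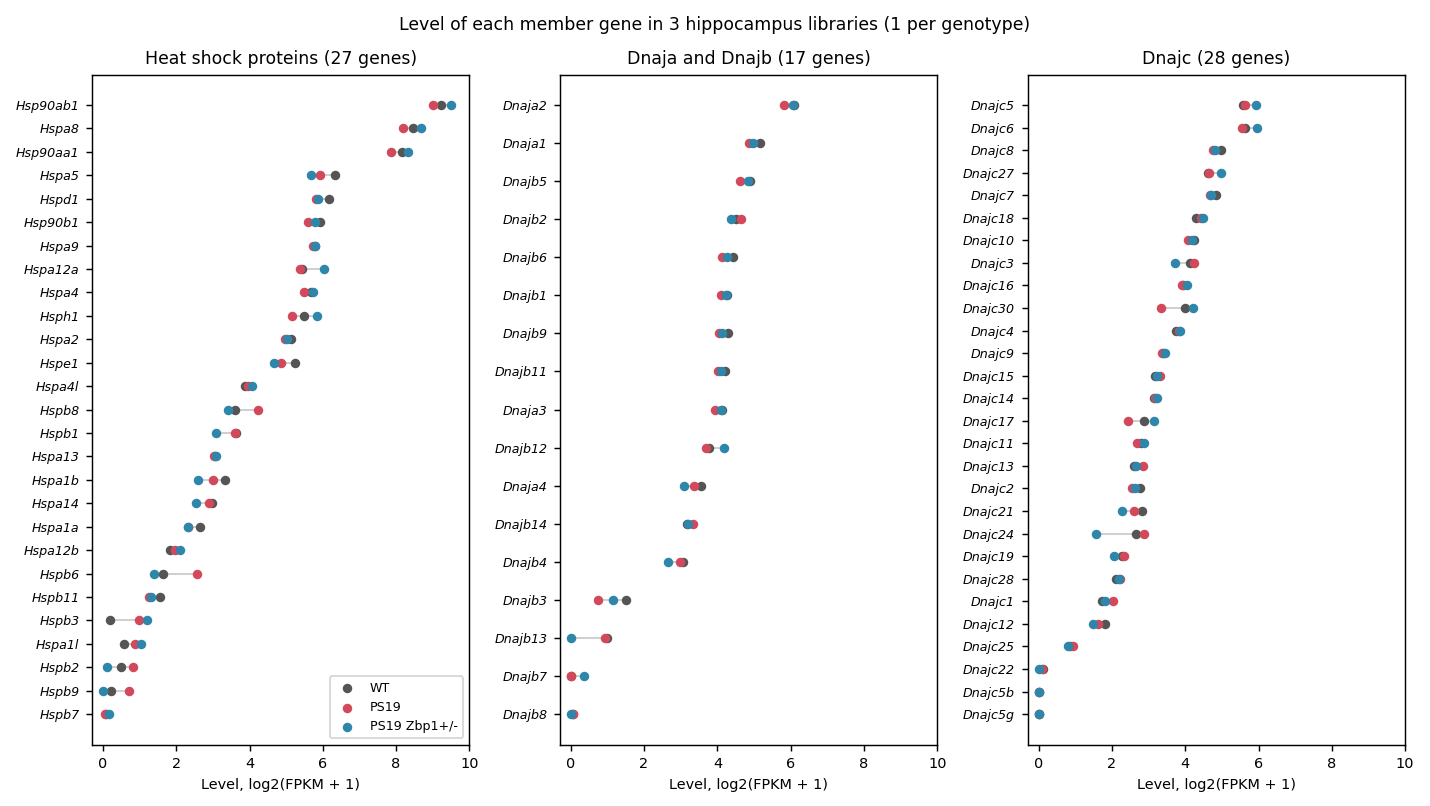
Level of each of the 72 member genes as log2(FPKM + 1) (horizontal axis) in the WT, PS19 and PS19 Zbp1+/- libraries (1 point each), sorted by mean FPKM within each panel. The 3 most abundant genes, Hsp90ab1, Hspa8 and Hsp90aa1, are lowest in PS19, while Hspb6 and Hspb8 are highest there.

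Between PS19 and WT, the chaperones were on balance slightly lower in PS19, and no tested member differed by 2-fold on the log2(FPKM + 1) scale. By read ratios, which carry no pseudocount, Hspb6 (2.33) and Dnajb3 (0.363) did, as did Hspb3, which did not pass the filter (13 reads against 2). Of the 60 members that reached an FPKM of 1 in WT or PS19, 42 were lower in PS19 by any amount and 18 were higher. Among all 12703 protein-coding genes passing the same filter, 53.7% were lower and 46.3% were higher. The members' median difference was -0.15, against -0.03 for all genes. At the 2-fold threshold, 0 members were higher and 0 were lower, against 2.2% and 0.291% of all genes. At 1.5-fold, 2 members were higher (6.34% of all genes) and 2 were lower (2.71% of all genes).

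Most abundant genes were lower in PS19, and the abundant chaperones lay near them. Of the 15 members with a mean FPKM of at least 30, 14 were lower in PS19, with a median difference of -0.25. Of all 1566 protein-coding genes at that level, 1231 were lower, with a median of -0.22. Excitatory neuron markers, 8 genes such as Snap25, Syt1 and Camk2a, had a summed FPKM of 1797 in WT, against 1431 in PS19 and 2207 in PS19 Zbp1+/-, with none of them at 0. Nrgn led that sum (780, 522 and 913), and 3 of the 8, among them Camk2a (346, 348 and 458), were not lower in PS19. Astrocyte markers summed to 627, 1565 and 728, and microglial markers to 161, 552 and 170, again with none at 0. In FPKM, Gfap rose most of the astrocyte markers (98.4, 768 and 112) and C1qa of the microglial ones (48, 205 and 39.4). All 9 astrocyte markers and 8 of the 9 microglial markers were higher in PS19 than in WT. The exception was P2ry12 (11.2, 10.1 and 8.66). The part of these cell types in the chaperone values was not tested. The scaling of the libraries also matters here. Setting the FPKM sums of the libraries equal (TPM) moved the median of all genes by 0.11 and turned the members' median to 0.0081, which was then 0.077 below that of all genes.

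**Figure D2:**
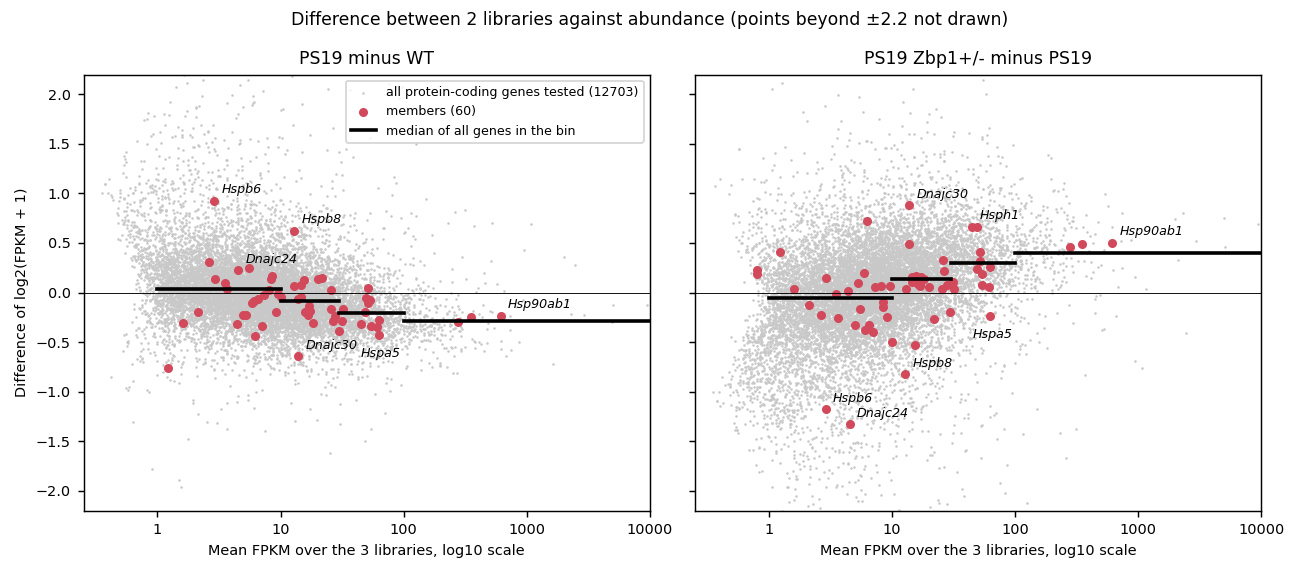
Difference of log2(FPKM + 1) between 2 libraries (vertical axis) against mean FPKM over the 3 libraries (log10 axis). Grey points are all protein-coding genes tested, red points the members, and black bars the median of all genes in 4 bins of mean FPKM. In the bin from 30 to 100 FPKM the median of all genes is -0.20 between PS19 and WT and 0.30 between PS19 Zbp1+/- and PS19, and most abundant members lie near the bars, while Hspb6 and Hspb8 lie above them on the left and below them on the right.

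Most of the stress-inducible members, a list that also holds the constitutive Hspa8 and the mitochondrial Hspd1 and Hspe1, were lower in PS19. Of 13 listed members, 12 were lower and 1 was higher, with a median of -0.29. Of all genes 53.7% were lower, as were 1231 of the 1566 at a mean FPKM of at least 30. With TPM, 10 of 13 were lower, with a median of -0.17, against 38.2% of all genes. Hspa1a and Hspa1b, the stress-induced Hsp70 genes, stand next to each other within the MHC region of chromosome 17 (34969190 to 34972156 and 34956436 to 34959238). Their transcripts were 99.2% identical over 2201 bases, so how the reads were split between them is uncertain. Hspa1b had 441 reads in WT, against 340 in PS19 and 226 in PS19 Zbp1+/-. Hspa1a had 267, 205 and 190 reads. Both were highest in WT, and the read ratio of PS19 over WT was 0.769 (95% interval 0.666 to 0.888) for Hspa1b and 0.766 (0.636 to 0.923) for Hspa1a. Dnajb1, the inducible J-domain partner of Hsp70, had FPKM values of 18.3, 16 and 17.9, with a ratio of 0.874 (0.797 to 0.957).

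Hsph1, the inducible Hsp110, had an FPKM of 44 in WT, against 35 in PS19 and 56.2 in PS19 Zbp1+/-. It was the inducible member with the widest spread between the PS19 and PS19 Zbp1+/- libraries, at a ratio of 1.60 (1.54 to 1.67). Dnaja1, a J-domain protein of the cytosol, had 34.9, 28.4 and 30.6. Dnaja4, its inducible relative, had 10.7, 9.19 and 7.59. The exons of Dnaja4 overlap Wdr61 on the opposite strand over 44.1% of its length, and strandedness is not given in the sources used here. Dnaja1 and Dnaja4 were highest in WT. Hspa4l, a further Hsp110, was the 1 listed gene higher in PS19, with 13.6, 14.5 and 15.6.

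Hspd1 and Hspe1 encode the mitochondrial chaperonin and its lid, and lie head to head on chromosome 1 (55077835 to 55088243 and 55088132 to 55091307). Hspd1 had an FPKM of 70.4 in WT, against 55.1 in PS19 and 57.4 in PS19 Zbp1+/-. Hspe1 had 37, 28 and 24.3. Both were highest in WT, by read ratios of PS19 over WT of 0.783 (0.743 to 0.825) and 0.758 (0.687 to 0.836). In the RefSeq promoter windows (GRCm38.p6, 250 bases before to 50 after each start), their shared start region held a doubled heat shock element, at chr1:55088059-55088076. It is shown because the genes share it, read 5′ to 3′ on the strand of each gene, and all bases are in capitals since the whole run is covered by the pair of overlapping matches:
Hspe1, plus strand: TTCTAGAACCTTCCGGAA
Hspd1, minus strand: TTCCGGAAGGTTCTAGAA

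The element searched was GAA, any 2 bases, TTC, any 2 bases and GAA, or its reverse complement, on both strands. It was found in the windows of 4 of the 58 members that have one, or 6.9%, and in those of 0.662% of all 27025 genes in the table. The other members with a match were Dnajb6 and Hsph1. Dnajb6, a suppressor of amyloid-like aggregation, carries it at chr5:29735852-29735864 (plus strand) and Hsph1 at chr5:149636288-149636300 (minus strand), in capitals because the printed run is the match itself:
Dnajb6: GAATCTTCCGGAA
Hsph1: TTCTGGAAAGTTC

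Dnajb6 had an FPKM of 20.5, 16.4 and 18.1 in WT, PS19 and PS19 Zbp1+/-. The 4 genes with the element lay below WT in PS19, with differences from -0.39 to -0.30, and they parted in PS19 Zbp1+/-, where Hsph1 lay above WT and the others below. A match is a description of the letters and not a shown binding site, and the windows of Hsp90aa1, Hsp90ab1 and Hspa8 were not searched here.

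The other mitochondrial and the nuclear members were near level or lower in PS19. Of all genes tested 53.7% were lower in PS19 than in WT, and 38.2% with TPM. Of 8 mitochondrial members, a list that counts Hspd1 and Hspe1 again, 6 were lower in PS19 than in WT (median -0.15; 4 of 8 with TPM). Hspa9 (mortalin), the mitochondrial Hsp70, had an FPKM of 54.8, 51.8 and 54.6 in the order WT, PS19, PS19 Zbp1+/-. Dnaja3, its J-domain partner, had 16.6, 14.4 and 16.3, and Dnajc15, of the inner membrane, had 8.05, 8.93 and 8.29. All 6 nuclear and ribosomal members were lower in PS19 (median -0.23; 4 of 6 with TPM). Dnajc8, a splicing-associated J protein, had 30.7, 25.9 and 27.3. The cytosolic Dnaja2 had 66.8, 55.1 and 66.2 and Dnajb5 had 28.9, 23.5 and 27.5, both with PS19 lowest. Dnajb3 had 33, 12 and 20 reads, the largest decrease between PS19 and WT, at a ratio of 0.363 (0.171 to 0.721) that rests on few reads.

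In the endoplasmic reticulum the members did not move together. Of 11 listed, 7 were lower and 4 higher in PS19, with a median of -0.07 that turned to 0.049 with TPM. With TPM 5 were lower and 6 higher. The shares of all genes lower were 53.7% and, with TPM, 38.2%, so these counts lie near those of all genes. Hspa5 (BiP; chromosome 2, 34771970 to 34777547), the Hsp70 of this compartment and a main target of the unfolded protein response, had 5833 reads in WT, against 4327 in PS19 and 3349 in PS19 Zbp1+/-. It was lower in PS19 at a ratio of 0.740 (0.712 to 0.770), and lower again in PS19 Zbp1+/- at 0.626 of WT (0.60 to 0.653). Hsp90b1, the Hsp90 of the compartment, had an FPKM of 60.3, 47.6 and 54.2. Dnajc3, which also inhibits the kinases of eIF2alpha, had 16.3, 18 and 12.1. Dnajc1, a membrane-bound J protein, had 2.32, 3.1 and 2.51. Hspa5 and Hsp90b1 were thus highest in WT, while Dnajc3 and Dnajc1 were highest in PS19.

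The ER stress element (CCAAT, any 9 bases and CCACG, both strands searched) was found in the windows of 3 of the 58 members, or 5.17%, and of 0.137% of all genes in the table. The 3 were Hspa5, Hsp90b1 and Dnajc3, and they are shown since the same element stands before genes whose levels differed in direction. Capitals mark the matches, at chr2:34772025-34772043 (plus strand; the printed run is the match), within chr10:86705510-86705694 (minus strand, 2 matches) and within chr14:118937682-118937931 (plus strand):
Hspa5: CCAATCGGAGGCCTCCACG
Hsp90b1: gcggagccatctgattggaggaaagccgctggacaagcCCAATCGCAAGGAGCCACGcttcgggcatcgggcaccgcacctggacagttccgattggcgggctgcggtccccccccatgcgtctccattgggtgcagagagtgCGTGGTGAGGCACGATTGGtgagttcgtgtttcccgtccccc
Dnajc3: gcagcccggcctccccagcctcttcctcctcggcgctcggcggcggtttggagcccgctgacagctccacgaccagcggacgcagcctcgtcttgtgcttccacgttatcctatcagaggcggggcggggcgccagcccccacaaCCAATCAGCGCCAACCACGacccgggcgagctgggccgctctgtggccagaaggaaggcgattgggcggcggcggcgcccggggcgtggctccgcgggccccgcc

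Among the small heat shock proteins, 2 ran the other way. Hspb6 (Hsp20; chromosome 7, 30552178 to 30555443), known from muscle, had 84 reads in WT, against 196 in PS19 and 59 in PS19 Zbp1+/-. Its FPKM was 2.12, 4.93 and 1.62, so the PS19 library stood above both others. The read ratio was 2.33 for PS19 over WT (1.79 to 3.04), and PS19 Zbp1+/- stood to PS19 at 0.329 (0.241 to 0.442). The difference of 0.93 log2 units was the largest increase among the members between PS19 and WT. It missed the 2-fold threshold with a pseudocount of 1 and passed it with 0.5, at 1.05.

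Hspb8 (chromosome 5, 116408491 to 116422864), which works with Bag3 to send aggregated proteins to autophagy, had 376, 599 and 297 reads. Its FPKM was 11.2, 17.8 and 9.62, and its ratio was 1.59 for PS19 over WT (1.40 to 1.81) and, for PS19 Zbp1+/- against PS19, 0.542 (0.470 to 0.623). Bag3 itself, no member, had an FPKM of 5.63, 8.26 and 6.63, again highest in PS19. Cryab, a small heat shock protein outside the naming rule that is abundant in oligodendrocytes, had 62.6, 99 and 41.4, with ratios of 1.58 (1.49 to 1.68) and 0.418 (0.388 to 0.450). These 4 genes were highest in the PS19 library, where the summed levels of astrocyte, microglial and oligodendrocyte markers and the thalamic markers Prkcd and Tcf7l2 were highest too. The other 3 tested genes of the thalamic and striatal list were lower in PS19 than in WT.

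Oligodendrocyte markers summed to an FPKM of 897 in WT, against 1607 in PS19 and 584 in PS19 Zbp1+/-. Mural cell markers, which include those of smooth muscle, summed to 70.5, 79.7 and 79.8, and endothelial markers to 59.2, 62.7 and 69.4. Vtn led the mural sum (41.1, 43.4 and 47.1). Of the 6 mural markers tested, 5 were higher in PS19 than in WT (median 0.23), against 46.3% of all genes. Between PS19 Zbp1+/- and PS19, 3 of the 6 were higher and 3 lower. Acta2 of smooth muscle was at 5.5, 4.38 and 4.9, while Myh11, also of smooth muscle, was at 0.664, 1.01 and 0.84. The glial sums thus moved in the direction of Hspb6 and Hspb8, and the mural sum differed little between PS19 and PS19 Zbp1+/-. The part of these cell types, or of neighbouring tissue, in the small heat shock protein values was not tested.

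**Figure D3:**
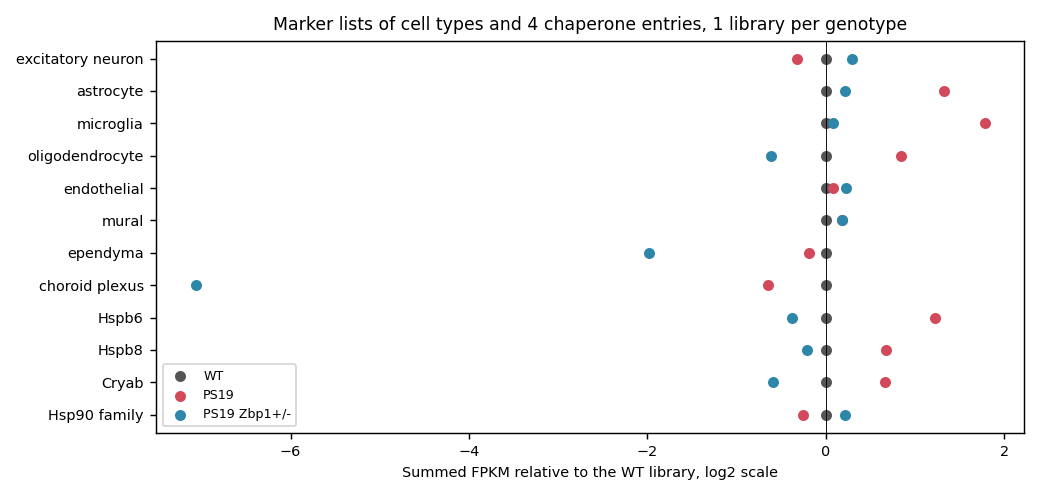
Summed FPKM of 8 cell type marker lists, and the FPKM of Hspb6, Hspb8, Cryab and the summed Hsp90 family, relative to the WT library on a log2 axis, 1 point per library. Hspb6, Hspb8 and Cryab lie to the right in PS19 with the astrocyte, microglial and oligodendrocyte lists, and the Hsp90 family lies to the left in PS19, as does the sum of the excitatory neuron list, of which 5 of 8 genes were lower.

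The other small heat shock proteins were mixed or had few reads. Hspb1 (Hsp27 in human), an actin-binding and stress-induced member, had 204 reads in WT, against 198 in PS19 and 123 in PS19 Zbp1+/-. WT and PS19 did not differ beyond counting error (ratio 0.969, 0.793 to 1.18), and PS19 Zbp1+/- was lower than PS19 (0.679, 0.537 to 0.854). Hspb3, a muscle-type member, had 2, 13 and 16 reads and was lowest in WT. Its ratio of PS19 Zbp1+/- over WT was 8.72 with an interval of 2.05 to 78.2, and the counts are too low to give its size. Hspb2, which is expressed next to Cryab, had 6, 11 and 1 reads and shares 30.2% of its length with exons of Cryab on the opposite strand, so its reads are uncertain. Hspb9 had 2, 8 and 0 reads, and like Hspb2 was highest in PS19 and lowest in PS19 Zbp1+/-. Hspb7 had 3, 2 and 5. Hspb11, which despite its name is a subunit of the intraflagellar transport complex, had 70, 50 and 48 reads.

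**Figure D4:**
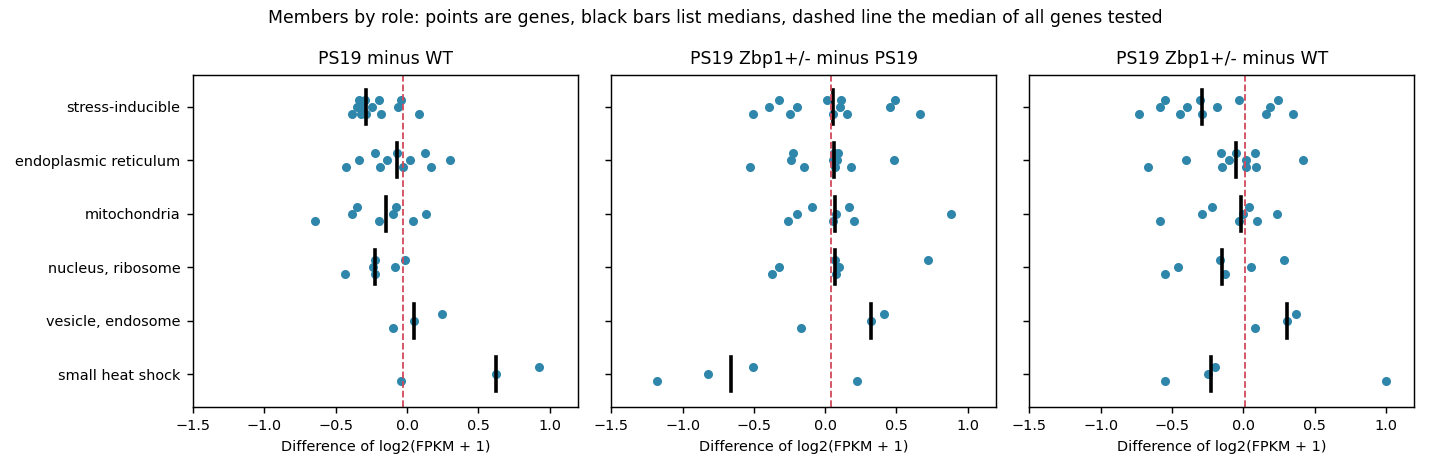
Difference of log2(FPKM + 1) of members in 6 role lists for the 3 comparisons, with black bars at list medians and the dashed line at the median of all genes tested. Small heat shock proteins have a median of 0.62 between PS19 and WT (3 genes) and -0.66 between PS19 Zbp1+/- and PS19 (4 genes), while the stress-inducible list has medians of -0.29 and 0.06.

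Between PS19 Zbp1+/- and PS19, 62 members entered the comparison, and 42 were higher in PS19 Zbp1+/- by any amount, against 53.7% of 12772 genes. The other 20 were lower, against 46.3% of genes. The members' median was 0.07 and that of all genes 0.04. At 2-fold, 0 members were higher (2% of all genes) and 2 were lower (5.16%), namely Hspb6 and Dnajc24. At 1.5-fold, 4 members were higher (9.37%) and 3 were lower (12.1%). This comparison shares the PS19 library with the one above. Rescaling to TPM and scaling by total reads moved the median of all genes by -0.25 and -0.16 and turned the members' median to -0.20 and -0.10. Under these scalings 50 of 63 and 43 of 61 members were lower, against 70.1% and 62.1% of all genes, so the direction of most small differences in this comparison depends on the scaling. Of the members compared, 28 changed sign with TPM and 23 with total reads, and Hsp90ab1, Hsp90aa1, Hspa8, Hsph1, Hspa12a, Dnajc30, Hspb6, Hspb8 and Dnajc24 were not among them.

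At the deposited scale, the members at least 1.5-fold higher were Dnajc30, Dnajc17, Hspa12a and Hsph1. Dnajc30, a J protein of the mitochondrial inner membrane, had 425 reads in WT, against 262 in PS19 and 464 in PS19 Zbp1+/-. Its ratio was 0.615 for PS19 over WT (0.525 to 0.719), and PS19 Zbp1+/- stood to PS19 at 1.93 (1.66 to 2.26). It overlaps Bud23 on the opposite strand over 26.2% of its length, and Bud23 had 470, 453 and 399 reads, which did not follow it. Dnajc17, a J protein linked to splicing, had 143, 100 and 164 reads, also lowest in PS19. Hspa12a, a distant Hsp70 relative common in neurons, had an FPKM of 42, 40.4 and 64.7, at a ratio of 1.60 for PS19 Zbp1+/- over PS19 (1.54 to 1.67) and 0.962 for PS19 over WT, with an interval that includes 1. WT and PS19 were thus close, and PS19 Zbp1+/- stood above both.

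Of 3 synaptic and endosomal J proteins, 2 were higher in PS19 Zbp1+/- than in PS19, with a list median of 0.32 (0.039 with TPM). Of all genes tested 53.7% were higher. Of the 1566 with a mean FPKM of at least 30, 1246 were higher, with a median of 0.31, which is near that of the list. Dnajc5 (cysteine string protein alpha), which keeps the synaptic vesicle protein SNAP-25 folded, had an FPKM of 46.6 in WT, against 48.3 in PS19 and 60.5 in PS19 Zbp1+/-. It lies 8.31 megabases from Zbp1 on chromosome 2. Dnajc6 (auxilin), which recruits Hspa8 to uncoat clathrin vesicles in neurons, had 48.8, 45.5 and 60.7. Dnajc13, an endosomal J protein, was the exception, with 5.02, 6.14 and 5.36. Dnajb12, anchored in the membrane of the endoplasmic reticulum, had 12.5, 11.9 and 17.1. Dnajb2, a neuronal J protein with ubiquitin-interacting motifs, went the other way, with 21.7, 24.2 and 19.9.

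Dnajc24 (chromosome 2, 105966709 to 106003549), which serves the synthesis of diphthamide on elongation factor eEF2, had 125 reads in WT, against 151 in PS19 and 42 in PS19 Zbp1+/-. Its read ratio for PS19 Zbp1+/- was 0.304 over PS19 (0.210 to 0.430) and 0.366 over WT (0.252 to 0.523), while WT and PS19 did not differ beyond counting error (1.21, 0.945 to 1.54). Of the members that passed the filter, no other lay 2-fold or more below WT in PS19 Zbp1+/-. Hscb, a mitochondrial J protein of iron-sulfur cluster assembly outside the naming rule, had an FPKM of 4.87, 6.65 and 2.44, with a ratio of 0.368 (0.243 to 0.544) for PS19 Zbp1+/- over PS19.

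Dnajb13, a J protein of the radial spokes of motile cilia, stayed below an FPKM of 1 and so entered no count at the deposited scale. With TPM or total reads it passed the filter in some comparisons and entered their counts. It had 46 reads in WT, against 43 in PS19 and 0 in PS19 Zbp1+/-, at least 13.1-fold lower than PS19 when 0 is set to 3 reads. The ependymal and choroid plexus markers were low in the same library, as given above, and Foxj1, the master regulator of motile cilia, had an FPKM of 9.37, 11.8 and 2.34. The exons of Dnajb13 overlap those of Ucp2 on the opposite strand over 11.2% of its length. The part of these tissues in the Dnajb13 value was not tested.

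**Figure D5:**
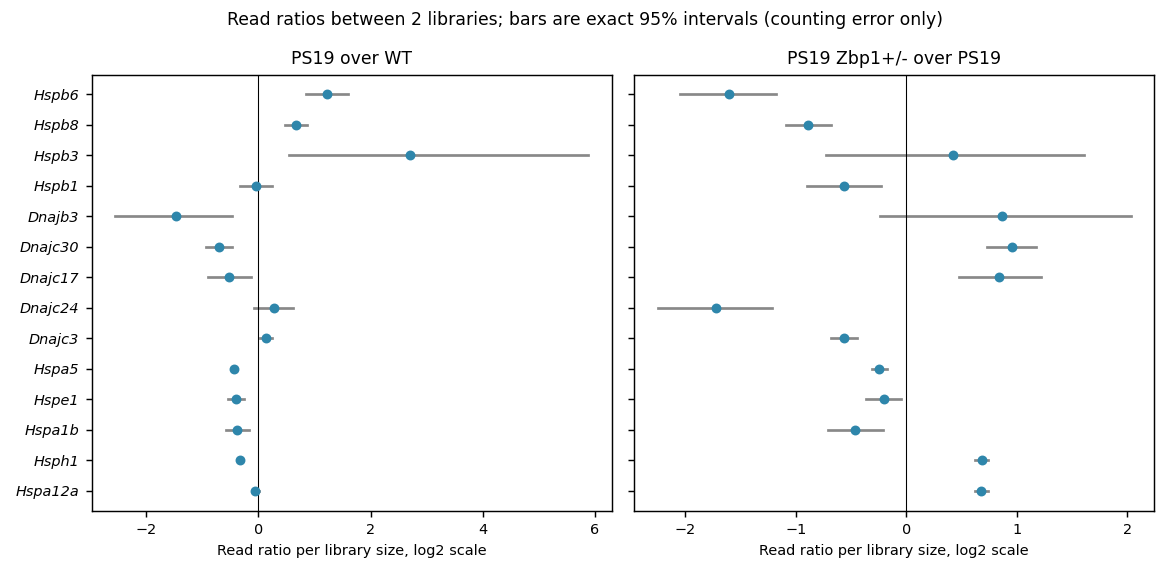
Read ratios per library size of 14 members on a log2 axis, PS19 over WT on the left and PS19 Zbp1+/- over PS19 on the right, with bars for exact 95% intervals that cover counting error only. Hspb6 and Hspb8 lie above WT on the left (2.33 and 1.59) and below PS19 on the right (0.329 and 0.542), and Dnajc30 lies below and then above (0.615 and 1.93).

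Between PS19 Zbp1+/- and WT, the members' median lay near 0. Of 62 members, 34 were lower and 28 higher by any amount, against 49% and 51% of 12436 genes, with a median of -0.03 against 0.01. With TPM 46 of 61 members were lower, and with total reads 47 of 62, against 63.1% and 63% of all genes, and 12 members changed sign under each. At 2-fold, 0 were higher (1.07% of all genes) and 1 was lower (2.28%). At 1.5-fold, 2 were higher (6.71%) and 4 were lower (7.12%). The higher ones were Hspb3 and Hspa12a. The lower ones were Dnajc24, Hspa1b, Hspa5 and Hspe1. The inducible list split here, with 9 of 13 lower and a median of -0.29, while Hsph1, Hspa8, Hsp90aa1 and Hspa4l were higher. Dnajc21, which joins ribosome assembly, had 502 reads in WT, against 418 in PS19 and 290 in PS19 Zbp1+/-, and Hspa14, an Hsp70 bound to ribosomes, had 485, 454 and 306.

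The wider chaperone network was read from lists of other genes. Of all genes tested, 53.7% were lower in PS19 than in WT, and 53.7% were higher in PS19 Zbp1+/- than in PS19. Of the 1566 with a mean FPKM of at least 30, 1231 were lower in PS19 than in WT (median -0.22). Of these 1566, 1246 were higher in PS19 Zbp1+/- than in PS19 (median 0.31). Of the 13 tested genes of the TRiC chaperonin and prefoldin, which fold tubulin and actin, all 13 were lower in PS19 than in WT, with a median of -0.33, and 12 of 13 were higher in PS19 Zbp1+/- than in PS19, with a median of 0.35. With TPM these counts were 13 and 9 of 13. At that scaling 38.2% of all genes were lower in PS19 than in WT, and 70.1% were lower in PS19 Zbp1+/- than in PS19. Pfdn5, the most abundant, had an FPKM of 63.9, 48 and 61.4. Of 13 Bag proteins and other Hsp70 co-chaperones, 11 were lower in PS19 (median -0.28), and 9 were with TPM, against 53.7% and 38.2% of all genes. Stub1 (CHIP), the ubiquitin ligase that marks Hsp70 clients including tau, had 38.4, 27.8 and 51.9, with ratios of 0.723 (0.659 to 0.792) and 1.87 (1.71 to 2.04). Bag1 had 72.8, 59.7 and 90.8. Stub1 and Bag1 were lowest in PS19 and highest in PS19 Zbp1+/-.

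Of 16 tested Hsp90 co-chaperones, 12 were lower in PS19 (median -0.22), and 11 were with TPM, against 53.7% and 38.2% of all genes. Stip1 (Hop), which passes clients from Hsp70 to Hsp90, had an FPKM of 68, 57.9 and 106, and Fkbp8 had 83.9, 62.1 and 90.1. Cdc37l1, a relative of the kinase co-chaperone Cdc37, ran against them with 10.8, 15 and 8.2. The heat shock factors were near level, and Hsf1 had 7.48, 6.61 and 6.87. All 4 tested genes of that list were lower in PS19 (median -0.14; 3 with TPM), among them Hsbp1, the heat shock factor binding protein, with 104, 80.6 and 96.1. Serpinh1, the collagen chaperone of the endoplasmic reticulum, had 10.2, 11.7 and 5.10, lowest in PS19 Zbp1+/-. Htra1, a secreted protease that cuts tau, had 67.5, 65 and 94, and Gak, the widely expressed relative of auxilin, had 15.4, 16.2 and 19.3. No gene of these lists was 2-fold apart between PS19 and WT.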

How the data were processed

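The authors deposited 1 table of FPKM values for 54532 genes in 3 hippocampus libraries (WT, PS19, PS19 Zbp1+/-), with the unit taken from the file's name and values. Per the submitters' processing notes, Trim Galore 0.6.5, STAR 2.5.3a and featureCounts 2.0.4 were used. The notes name mm39, yet 98.3% of the 54409 gene IDs found in GENCODE M21 (GRCm38) had the same position there, as did 69 of the 72 members. Printed gene positions are the table's own. The library kit was NEB Next Ultra RNA, per the labels' protocols.

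FPKM times gene length was a whole multiple of 1 step (tolerance 0.01 reads) for 100% of values. This gave reads and implied library sizes of 15826984 to 17287957. Differences of log2(FPKM + 1) were taken over protein-coding genes that reached an FPKM of 1 in 1 of the libraries compared, with a threshold of 2-fold. The naming rule took members at least 2-fold apart, the 10 largest increases and decreases per comparison and the 3 most abundant per family. It also took Hspa1a, Hspa1b, Hspd1 and Hspe1, and pathway genes at least 1.5-fold apart or most abundant in their list. Dnajb14, Dnajc18, Hspa12b, Dnajc27, Dnajb4 and Hspa1l met the rule but were not described in the Results. The read ratio of PS19 over WT was 1.14 (1.08 to 1.21) for Dnajb14 and 1.11 (1.03 to 1.18) for Dnajc18. For Hspa12b it was 1.14 (0.918 to 1.42). Over WT, PS19 Zbp1+/- stood at 1.29 (1.22 to 1.37) for Dnajc27 and 0.729 (0.664 to 0.801) for Dnajb4. For Hspa1l it stood at 2.18 (1.26 to 3.88), on 42 reads against 21. Members outside that rule, Bag3, Hsf1 and single marker genes were named after their values were seen. Near-identical copies were sought with BLAST 2.17.0 among GENCODE M21 transcripts (95% identity over 200 bases and 10% of the transcript). Promoter windows are those of RefSeq, GRCm38.p6, matched by symbol for 58 of 72 members. The procedure was tested on simulated data. Members and lists were chosen with earlier results of these data known. Tools were scipy 1.17.1, pandas 2.3.3, numpy 2.4.6 and matplotlib 3.10.9 under Python 3.11.15.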

Additional observations from a re-analysis of the deposited data

How the results depend on the processing

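No paired analysis was possible because each genotype had 1 library, and for the same reason no library could be left out. The alternatives were pseudocounts of 0.1 and 0.5, 3 filters, 3 scalings, thresholds of 1.5-fold and 4-fold, and, added after the data had been seen, leaving out the 13 members with a near-identical copy that has reads. Between PS19 and WT, the count of members at least 2-fold higher went from 0 to 1 with either pseudocount and with TPM, and to 2 at 1.5-fold. The count of lower members went from 0 to 1 with a pseudocount of 0.1 and to 2 at 1.5-fold. The median turned from -0.15 to 0.0081 with TPM. Without the members that have copies it was -0.078, against -0.025 for all genes. Between PS19 Zbp1+/- and PS19, the count of higher members went from 0 to 4 at 1.5-fold. The count of lower members went from 2 to 4 with TPM and to 0 at 4-fold or with a mean FPKM of at least 5. The median of 0.07 was 0.023 with scaling by the median ratio, and turned to -0.20 with TPM and -0.10 with total reads. Between PS19 Zbp1+/- and WT, the count of higher members went from 0 to 1 with either pseudocount and to 2 at 1.5-fold. The count of lower members went from 1 to 2 with total reads, to 4 at 1.5-fold, and to 0 at 4-fold or with a mean FPKM of at least 5. The median of -0.03 was -0.18 with TPM and -0.19 with total reads, and turned to 0.021 without the members that have copies. The threshold and filter alternatives change these counts by construction. The cause of the other changes was not tested. Of 983 values of named members under the alternatives, 843 moved by at most 1/2 of the log2 width of their counting interval and 140 moved by more. The values carry a pseudocount, while the intervals of the read ratios do not. The 3 filters leave a member's value unchanged, so they add to the 843 by construction. Of the values 2-fold apart 0 changed sign, but only Hspb6 and Dnajc24 were that far apart. Among all members compared, 11 of 60 changed sign between PS19 and WT with TPM. Between PS19 Zbp1+/- and PS19, 28 of 61 did with TPM and 23 of 61 with total reads. Between PS19 Zbp1+/- and WT, 12 of 61 did under each. Members with few reads, such as Hspb3, Hspb2 and Dnajb3 (12 reads in PS19), are limited by depth.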

Other observations

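Several members have processed pseudogenes that are near-identical to them, and their reads are given here as values. Gm12346, a copy of Hsp90aa1 at 99.5% identity, had 246, 217 and 261 reads in the order WT, PS19, PS19 Zbp1+/-, against 19353, 15764 and 19818 for Hsp90aa1 itself. Gm15542, a copy of Dnaja1, had 149, 157 and 140 reads. Hspd1-ps3 had 75, 100 and 62 reads, and Dnajc19-ps had 13, 4 and 4. Of the copies of Dnajb6, Gm13414 had 48, 45 and 63 reads and Gm6395 had 43, 49 and 69. Reads that fit a gene and its copy cannot be told apart in these counts.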
